A study of Mus musculus with 6 samples.

Results

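The enzymes that trim and branch N-glycans in the Golgi were examined on 6 Affymetrix arrays of MLE-15, a line of lung epithelial cells from the mouse. The group comprised the N-acetylglucosaminyltransferases Mgat1, Mgat2, Mgat3, Mgat4a, Mgat4b, Mgat4c, Mgat5 and Mgat5b and the Golgi alpha-mannosidases II Man2a1 and Man2a2. Its members were chosen by name, through the RefSeq accession in the name of each probe set. All 10 were measured, each by 1 probe set, among 909 named genes and 1246 probe sets in all. Shares of all probe sets given below are shares of these 1246, not of all transcripts of the mouse. MLE-15 cells come from lung tumours of mice that carried the SV40 large T antigen under a surfactant protein C promoter, so every sample shares that transformed background and a single line. The control group was 3 arrays of unstimulated cells. The other group was 3 arrays of cells stimulated with the phorbol ester PMA, an activator of protein kinase C, which the series text gives as 10 nM for 24 h. The labels number the arrays of each group 1, 2 and 3. In the titles of both groups number 1 carries no letter, number 2 the letter A and number 3 the letter B. The labels do not say what a number or letter stands for or that replicates came from separate cultures. The p-values therefore reflect the spread of these samples alone, and that spread may be technical. The series asked whether enzymes that modify glycans and mucins are expressed in airway cells and induced by PMA.

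N-glycans reach the medial Golgi as mannose-rich chains. Mgat1 adds the N-acetylglucosamine (GlcNAc) that opens the route to hybrid and complex chains, and mannosidase II, made as the close relatives Man2a1 and Man2a2, then removes the outer mannoses of the other arm. Mgat2 starts the second antenna on that arm. Mgat4a and Mgat4b add a further branch on the arm that Mgat1 began, and Mgat5 adds one on the arm that Mgat2 began, the branch on which long lactosamine chains are preferentially built. Mgat3 adds the bisecting GlcNAc to the core, after which the other branching enzymes act poorly on the chain. Mgat4c is a relative of Mgat4a and Mgat4b, and Mgat5b is a relative of Mgat5 known from brain, where it acts on O-mannosyl glycans.

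Values are RMA values on the log2 scale, so that a difference of 1 unit is a doubling. The medians of the 6 arrays lay between 5.64 and 5.71 and precision is limited by how few arrays there are. Both arrays with the number 1, 1 control and 1 PMA, stood apart from the other 4. Over all probe sets the root mean square difference was 0.65 to 0.69 log2 units between a number 1 array and an array of number 2 or 3, 0.17 between the 2 number 1 arrays, and 0.099 to 0.17 among the other 4. Over the 10 branching enzymes the same measure was 0.23 to 0.32, 0.13 and 0.068 to 0.16. Each pairing of a number 1 array with one of numbers 2 and 3 had 110 to 125 probe sets apart by over 2-fold, and 0 of the 10 enzymes were among them. Results are therefore given within numbers, and number 1 is compared with numbers 2 and 3. Of 13 listed lung epithelial markers 2 were measured, Sftpa1 at 3.29 to 3.89 and Sftpd at 5.28 to 5.50. Sftpa1 lay below the lower quartile of every array, and no probe set was matched to Sftpc, Nkx2-1 or Epcam. These values therefore say little about the labelled cell type.

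Of the enzymes of the first steps, Mgat1 and Man2a1 varied little and Man2a2 more. Mgat1 read 9.13, 9.25 and 9.25 in control arrays 1, 2 and 3 and 9.11, 9.25 and 9.25 in PMA arrays 1, 2 and 3. The 4 arrays of numbers 2 and 3 were nearly equal, and both number 1 arrays lay slightly below them. Man2a1 ranged from 8.09 to 8.29 with no order by group or number. Its relative Man2a2 read 7.44, 7.05 and 6.95 in control and 7.35, 6.70 and 6.98 in PMA arrays. Both number 1 arrays of Man2a2 were above the other 4, and PMA array 2 was the lowest. Man2a2 thus spanned 0.74 log2 units over the 6 arrays, the widest range of the 10 enzymes, against 0.21 for Man2a1.

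Mgat2, the enzyme of the second antenna, read 7.05, 6.72 and 7.01 in control and 7.29, 6.72 and 7.02 in PMA arrays. Its values followed the number in both groups, lowest in number 2, and the control and PMA values of numbers 2 and 3 nearly coincided. Mgat3, the bisecting enzyme, read 7.65, 7.13 and 7.17 in control and 7.60, 7.32 and 7.11 in PMA arrays. Both number 1 arrays of Mgat3 were above all the others, and control and PMA values overlapped.

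Of the enzymes that add further branches, Mgat4b ranged from 9.53 to 9.70, Mgat5 from 6.23 to 6.46, Mgat5b from 4.47 to 4.55 and Mgat4c from 3.01 to 3.13. Mgat4a read 5.22, 5.29 and 5.17 in control and 4.95, 5.29 and 5.21 in PMA arrays. PMA array 1 was low for Mgat4a, and the other 5 lay within 0.12 units of each other. Probes differ in how well they bind, so levels were compared within a gene and not between genes. As a guide to signal, the mean of Mgat4c stood at percentile 3.29 of all probe sets, Mgat5b at 26.8 and Mgat4a at 41.6, while Mgat1 stood at 87.5 and Mgat4b at 91.0. The table holds no background probes, so none of the genes was called present or absent, and a change of a dim transcript such as Mgat4c could be compressed. The probe set of Mgat4a carries the suffix s, which marks probes that can bind several transcripts. Among list genes named below, the probe sets of Slc35a3, St3gal4, Alg8 and Dcn carry it too.

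**Figure D1:**
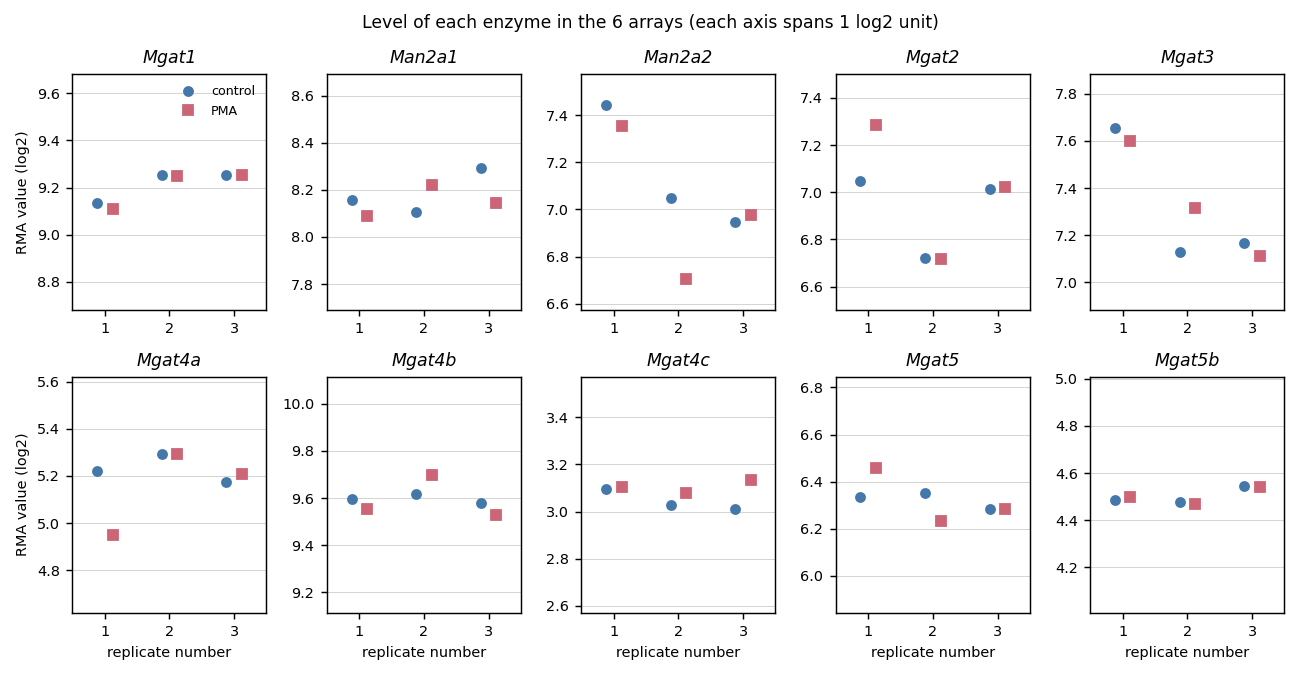
RMA value (log2 scale, vertical axis) of the 10 enzymes against replicate number (horizontal axis), 1 point per array, circles for control and squares for PMA, each panel spanning 1 log2 unit. Mgat3 and Man2a2 are highest in number 1 in both groups, Mgat2 is lowest in number 2, and Mgat1, Mgat4b and Mgat5b lie almost flat.

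Promoter sequence was examined because PMA acts in part through AP-1, a transcription factor that binds the letters TGANTCA. RefSeq windows of 250 bases before to 50 bases after a transcript start (build GRCm38.p6) were matched by symbol for 7 of the 10 enzymes, 13 windows in all. Mgat3, Mgat4b and Man2a2 had none. The AP-1 letters, searched on both strands, occurred in 1 of the 13 windows, that of the downstream start of Mgat4a, and in 7.81% of the 32851 windows of all genes. The GC box, GGGCGG, occurred in 7 of the 13 windows and in 35.7% of all. The ETS motif CCGGAAG occurred in 1 of the 13, that of the first start of Mgat1, against 8.86% of all. The E-box CACGTG occurred in 0 of the 13, against 7.15% of all. No match of one motif overlaps a match of another in the stretches shown. These are matches of letters, not evidence of binding. The stretches that hold them are shown 5′ to 3′ on the gene's strand with each match in capitals. They are shown for Mgat4a, whose pair of starts differ in motif, for Mgat1, and for Mgat2, whose 3 GC boxes overlap end to end, the last of them running past the start.
Mgat4a downstream start, chr1:37536505-37536584, minus strand, with 1 AP-1 match: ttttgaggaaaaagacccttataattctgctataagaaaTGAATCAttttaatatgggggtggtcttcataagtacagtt
Mgat4a upstream start, chr1:37541017-37541106, minus strand, with 2 GC boxes: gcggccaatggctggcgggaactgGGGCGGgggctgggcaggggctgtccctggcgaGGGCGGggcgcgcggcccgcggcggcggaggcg
Mgat1 first start, chr11:49243961-49244170, plus strand, with 3 GC boxes and, last, the ETS match: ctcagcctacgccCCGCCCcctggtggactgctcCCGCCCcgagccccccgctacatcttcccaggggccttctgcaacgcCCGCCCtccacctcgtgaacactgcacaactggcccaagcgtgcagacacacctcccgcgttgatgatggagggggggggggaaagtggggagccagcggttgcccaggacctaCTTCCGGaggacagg
Mgat2, chr12:69184038-69184157, plus strand: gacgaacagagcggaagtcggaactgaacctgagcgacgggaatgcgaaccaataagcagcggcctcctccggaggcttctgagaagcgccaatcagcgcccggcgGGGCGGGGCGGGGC
The window of the upstream Mgat4a start is 74.3% G and C, and that of the downstream start is 36.0%.

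No difference between PMA and control arrays passed the test in any of the 10 enzymes. By limma with Benjamini-Hochberg adjustment over all probe sets, 0 of the 10 passed at an adjusted p under 0.05, where 0% of all 1246 probe sets passed. None of the 10 had an unadjusted p under 0.05, against 4 of all probe sets. A fit that took the replicate number as a block also called 0, with 0 of the 10 at an unadjusted p under 0.05. The exact two-sided permutation test of each enzyme over the 6 arrays gave p = 0.2 for Mgat4c and 0.6 or more for the others. With 3 arrays against 3 that test cannot go below 0.1. Control and PMA values overlapped for all 10 enzymes, while they did not overlap for 3.37% of all probe sets. The median difference of the 10 was -0.0022 log2 units, against 0.0033 over all probe sets, with 4 higher and 6 lower in PMA.

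Among the enzymes of the first steps, Mgat1 averaged 9.21 ± 0.069 (SD, n = 3) in control and 9.20 ± 0.082 in PMA arrays. The PMA minus control differences of Mgat1 within numbers 1, 2 and 3 were -0.025, -0.0030 and -0.0018. Man2a2 averaged 7.15 ± 0.26 without PMA and 7.01 ± 0.33 with it. Its difference of -0.13 log2 units was the largest in size of the 10. Within numbers its differences were -0.091, -0.34 and 0.032, so most of that mean came from number 2. Man2a1 differed by -0.068, 0.12 and -0.15 within numbers, with a mean of -0.034.

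Mgat2 averaged 6.93 ± 0.18 in control and 7.01 ± 0.28 in PMA arrays. The Mgat2 difference was 0.24 within number 1 but -0.0018 and 0.0067 within numbers 2 and 3. Mgat4a had the converse pattern in number 1, at -0.27, with -0.0013 and 0.035 in the other numbers. Neither dependence on the number passed a test: the PMA difference of number 1 minus that of numbers 2 and 3 was 0.24 (SE 0.23) for Mgat2 and -0.29 (SE 0.14) for Mgat4a. By limma the adjusted p was 0.833 and 0.743, and 0 of the 10 enzymes passed, with 0 at an unadjusted p under 0.05, where 0.0803% of all probe sets passed. Mgat3 differed by -0.057, 0.19 and -0.054 within numbers, and Mgat5 by 0.12, -0.12 and 0.0025. Mgat4b stood at 9.60 ± 0.018 and 9.59 ± 0.091, and Mgat5b at 4.50 ± 0.038 and 4.50 ± 0.035. Mgat4c and Mgat1 alone had the same sign in all 3 numbers, 2 of 10 against 23.1% of all probe sets. The 3 differences of Mgat4c were 0.0082, 0.052 and 0.12, in a probe set near the lowest signals of the array.

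The size of PMA change that the arrays allow was read from the 95% intervals. In the fit with the replicate number as a block, the interval lay within 0.58 log2 units of 0, about 1.49-fold, for 10 of the 10 enzymes and for 99.7% of all probe sets. It lay within 0.26 units, about 1.20-fold, for 9 of the 10 and for 74.6% of all. The exception was Man2a2, with an interval from -0.32 to 0.054. A fit with only 1 term, for number 1 against the others, in place of the block gave 8 of the 10 within 0.26. Of all probe sets 74.8% lay within it there. The exceptions were then Mgat2, from -0.15 to 0.32, and Man2a2, from -0.32 to 0.047. In the unblocked fit, whose error includes the distance of number 1, 10 of the 10 lay within 1 unit, 9 within 0.58 and 6 within 0.26, against 88.6%, 76.5% and 31.4% of all probe sets. These intervals cover the measured signal of these arrays only. Among 23 listed genes known to respond to phorbol esters, 7 had a probe set. Limma called 0 of those 7 with or without the block. At an unadjusted p under 0.05 there were 0 without the block and 1 with it, Junb, a subunit of AP-1, at -0.16 (unadjusted p = 0.0399, adjusted p = 0.992).

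**Figure D2:**
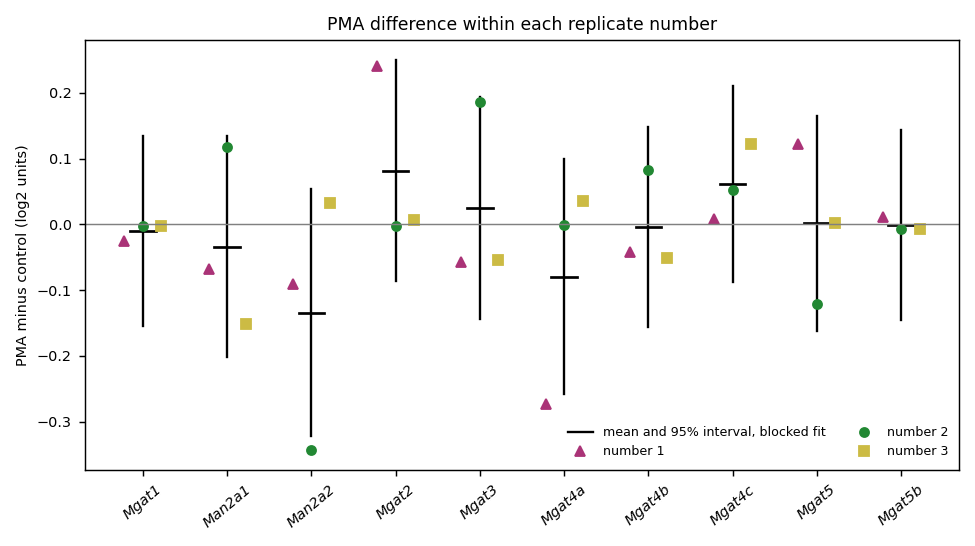
PMA minus control difference (log2 units, vertical axis) of each enzyme, with symbols for the difference within replicate numbers 1, 2 and 3 and black lines for the mean and its 95% interval in the fit with the number as a block. Every interval includes 0, and the points farthest from 0 are Man2a2 in number 2 (-0.34), Mgat4a in number 1 (-0.27) and Mgat2 in number 1 (0.24).

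The number 1 arrays differed from numbers 2 and 3 in the bisecting enzyme Mgat3 and in Man2a2, both higher in number 1. Mgat3 (probe set NM_010795.3_psr1_at) stood at a mean of 7.63 over both number 1 arrays and 7.18 over the 4 others, a difference of 0.44 log2 units (SE 0.078), or 1.36-fold. The lowest number 1 value, 7.60, was above the highest of the others, 7.32. Man2a2 (NM_172903.3_psr1_at) averaged 7.40 against 6.92, a difference of 0.48 (SE 0.086), or 1.39-fold. By limma with PMA as a term and Benjamini-Hochberg adjustment, the adjusted p was 8.49e-04 for Mgat3 and 0.00100 for Man2a2. The comparison was chosen with number 1 already known to stand apart in these data. Both number 1 arrays may also share an origin that the labels do not give. These p-values therefore describe these arrays and are not an independent test. The control and PMA arrays taken apart gave 0.51 and 0.38 for Mgat3 and 0.45 and 0.51 for Man2a2.

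Of the 10 enzymes 2 were therefore called higher and 0 lower in number 1. Over all probe sets 41.7% were called, 27.5% higher and 14.1% lower. That share is large, so 2 of 10 does not set the branching enzymes apart as a group that moved, and whether they moved less often was not tested. Their median difference was 0.0091 log2 units, against 0.079 over all probe sets, and their median absolute difference was 0.12, against 0.17. Number 1 values lay wholly outside the range of the others for 4 of 10, Mgat1, Mgat2, Mgat3 and Man2a2, and for 55.9% of all probe sets.

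Mgat2 came close to the threshold, with 7.17 in number 1 against 6.87, a difference of 0.30 (SE 0.11, limma adjusted p = 0.0543). Without control array 3 it was called, at 0.38 (limma adjusted p = 0.00954). Over the alternatives that kept both number 1 arrays its adjusted p ran from 0.00954 to 0.170. With a single number 1 array kept, the Mgat2 difference was 0.42 without control array 1 and 0.18 without PMA array 1. Mgat1 was lower in number 1 by a small and even step, at 9.12 against 9.25, a difference of -0.13 (SE 0.065, limma adjusted p = 0.136). The step of Mgat1 was -0.12 in control and -0.14 in PMA arrays. For Mgat4a the difference of -0.16 (SE 0.084) came from the PMA arrays, at -0.30 against -0.014 in control. Mgat5 likewise gave 0.20 in PMA and 0.018 in control arrays. The differences of Man2a1 (-0.068), Mgat4b (-0.030), Mgat4c (0.036) and Mgat5b (-0.018) did not pass. The close relatives Man2a1 and Man2a2 thus gave -0.068 and 0.48, though the difference between them was not tested. When the arrays were quantile-normalized again, Mgat3 and Man2a2 kept their call and Mgat1 (-0.31), Man2a1 (-0.22) and Mgat4b (-0.22) were called lower, 5 of 10 in all. Under that scaling 40.9% of all probe sets were called, so 5 of 10 is near the background. It also moved the calls over all probe sets from 66.1% higher to 54.5% higher.

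Mgat2 also separated number 3 from number 2, in both groups by nearly the same step. The step was 0.295 in control and 0.304 in PMA arrays, from a mean of 6.72 in number 2 to 7.02 in number 3, a difference of 0.30 (SE 0.091). It was the one enzyme of the 10 with an unadjusted p under 0.05 in that comparison, which was chosen after its values were seen. It did not pass over all probe sets by limma (adjusted p = 0.953), where 0% passed and 61 probe sets had an unadjusted p under 0.05.

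The wider N-glycan pathway was read from 4 lists around the branching steps, and in none did a gene pass for PMA by limma. Of the 40 measured genes 0 had an unadjusted p under 0.05 without the block and 2 with it, Dpm1 and Alg8, with 0 passing in either fit. The largest PMA difference in any of them was that of Dpm1, a subunit of dolichol-phosphate-mannose synthase, with 4.37 ± 0.24 in the control group, 4.68 ± 0.40 in the PMA group and a difference of 0.31 (SE 0.23). Dpm1 had a limma adjusted p = 0.992 with the block (unadjusted p = 0.00363). Slc35a3, the Golgi transporter of UDP-GlcNAc, differed by 0.11, St3gal4, an antenna sialyltransferase, by 0.14 and Ganab, a subunit of glucosidase II, by 0.033.

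Between number 1 and the other arrays, the median absolute difference was 0.12 log2 units for the branching enzymes and 0.17 for all probe sets. It was 0.23 for the 3 measured genes listed under trimming before branching and 0.25 for the lipid-linked precursor. For the list of UDP-GlcNAc supply it was 0.36, and for core fucose and antenna extension 0.64. Whether these lists differ was not tested. UDP-GlcNAc is the donor that every Mgat enzyme uses. Of 7 measured genes on the list of its supply 4 were lower in number 1 and 0 higher, with a median difference of -0.36 log2 units. Over all probe sets 14.1% were called lower and 27.5% higher, and whether the list departs from that was not tested. The supply list also holds Slc35a2, the transporter of UDP-galactose, which did not pass. Without Slc35a2, 4 of 6 were lower with a median of -0.43. Gfpt2, an isoform of the first enzyme of the hexosamine pathway, averaged 6.38 in number 1 and 7.70 in the others, a difference of -1.32 (SE 0.077, limma adjusted p = 2.37e-07). Slc35a3 averaged 5.56 against 6.78, a difference of -1.23 (SE 0.12, adjusted p = 1.30e-05). Uap1, which makes UDP-GlcNAc, differed by -0.50.

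Of 14 measured enzymes of core fucose and antenna extension, most of which act on the branches that the Mgat enzymes start while Fut8 adds fucose to the core, 7 were higher in number 1, 2 were lower and 5 did not pass. St6gal1, which caps antennae with sialic acid, differed by 2.22 (SE 0.11), and the galactosyltransferases B4galt5 and B4galt1 by 1.38 (SE 0.080) and 1.36 (SE 0.12). Of 16 genes that assemble and transfer the lipid-linked precursor, 5 were higher and 4 lower, led by Alg13 at 0.58, Dpm1 at 0.55 and Alg1 at 0.42. Of 13 genes listed under trimming before branching only 3 were measured, and Man1a, Man1a2, Man1b1 and Man1c1 were not among them. Ganab was lower (-0.23). Uggt1, the glucosyltransferase of glycoprotein folding control, was higher by 0.38, and its relative Uggt2 did not pass (0.20). A glucosyltransferase adds glucose, so Ganab alone of the 3 trims, and these values say little about trimming. Lists and alternatives were chosen with earlier results of these data known, and the share called over all probe sets, 41.7%, stands beside each of these counts.

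**Figure D3:**
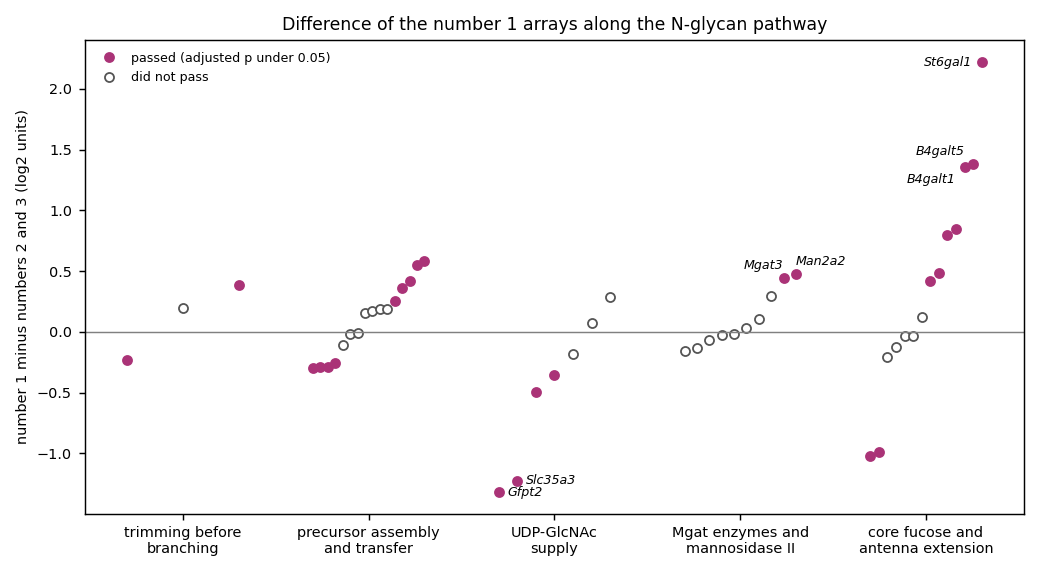
Difference of the 2 number 1 arrays from the 4 arrays of numbers 2 and 3 (log2 units, vertical axis) for each measured gene of the N-glycan pathway, by step (horizontal axis), filled where the gene passed. The 10 enzymes lie between -0.16 and 0.48, while genes of UDP-GlcNAc supply reach -1.32 and those of antenna extension reach 2.22. Of the 3 genes under trimming before branching, Ganab alone trims.

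Likeness to the called enzymes was measured as the root mean square difference over the 6 arrays, after each probe set's own mean was subtracted. The genes most like Mgat3 were Smpd1, acid sphingomyelinase, at 0.031 log2 units and Pkd1, polycystin-1, at 0.036. Those most like Man2a2 were the heparan sulfate proteoglycan Gpc1 at 0.055 and Cd83 at 0.060. Within 0.1 units of Mgat3 there were 77 of 899 genes, and 20 of Man2a2, so such likeness was common for Mgat3.

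Some markers of other cells differed with the number too, where 41.7% of all probe sets were called. Of 8 measured endothelial and fibroblast markers 4 were lower and 2 higher in number 1, the lower ones led by Dcn at -2.31 and Pecam1 at -1.37 and the higher ones being Pdgfrb at 0.78 and Selp at 0.39. Their mean log2 level was 5.64 to 5.76 in number 1 and 6.21 to 6.40 in the other arrays. Of 9 measured leukocyte markers 1, Mrc1, was lower in number 1 (-2.74) and 8 did not pass. Of the 9, 6 had a higher and 3 a lower mean in number 1, with a median difference of 0.030. Their mean log2 level, into which the large Mrc1 difference enters, was 4.86 to 5.02 in number 1 and 5.17 to 5.25 in the others. Of the 7 measured phorbol ester response genes 4 were lower and 1 higher, led by Cxcl2 at -3.06. Values of an RMA table have no 0, so no marker could be called absent. The part of these differences in those of Mgat3 and Man2a2 was not tested. In bulk RNA, fewer cells of a type and less RNA per cell cannot be told apart.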

How the data were processed

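RNA of 6 samples, 3 control and 3 PMA, was measured on 1 array each. The authors deposited log2 values, made with RMA per the submitters' processing notes. RMA equalises the arrays' distributions when it is run, so a shift of all transcripts together would not be seen. The 1246 probe sets were still not fully equal, with upper quartiles from 7.86 (control array 2) to 8.05 (control array 1). Over them the median difference of number 1 from the other arrays was 0.079, and 0.013 after quantile-normalizing again. The sources used here do not name the array, the RMA version or any filter.

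Probe sets were named by matching their RefSeq accession, without version, to the gene table of GRCm38.p6 (963 of 1246, 909 genes), with the highest mean standing for a gene. Values were used as deposited. Comparisons used limma 3.58.1 in R 4.3.3 (lmFit, eBayes), with Benjamini-Hochberg adjustment over all probe sets at 0.05. They were also run on simulated data, whose outcome is not given here and is not used as support. Each SE is limma's moderated standard error. Members, lists and the comparison of numbers were chosen with earlier results of these data known. The naming rule took all 10 members, the 3 largest number differences and the 1 largest PMA difference of each pathway list, and the 2 genes most like each called member. Marker genes, and the genes that the lists miss, are named as examples chosen after their values were seen. Arrays of the same number correlated at 0.956, 0.815 and 0.912 in their deviations from the group mean, all over the bound of 0.1 set for treating numbers as pairs. Number 1 drives this: the number 2 minus number 3 differences of the groups correlated at only 0.041. Alternatives were the block, array scaling, a low-value filter, probe set choice, moderation and left-out arrays. Motifs were exact letter matches.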

Additional observations from a re-analysis of the deposited data

How the results depend on the processing

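Under every alternative run, limma with Benjamini-Hochberg adjustment called 0 of the enzymes tested for PMA. This includes the replicate block (0 of all probe sets, 42 at an unadjusted p under 0.05). All 10 were tested except under the low-value filter, which left out Mgat4c and tested 9. Each enzyme has 1 probe set, so the choice of probe set could not change its difference. Mgat3 and Man2a2 kept their direction between number 1 and the other arrays in every fit. With 1 array left out they stood at 0.38 to 0.51 and 0.42 to 0.53. They kept their call in every fit with both number 1 arrays. The limma adjusted p of those fits reached 0.00745 and 0.00572, without control array 2. Fits without 1 of the number 1 arrays set a single array against 4, so only their differences are read. Quantile-normalizing again raised the members called from 2 to 5, and took Mgat4c to -0.039 and, for PMA, Mgat1 to 0.0047. Centring the arrays took Mgat4c to -0.0036 and, for PMA, Mgat5 to -0.011. PMA differences near 0 changed sign with the arrays kept. Without number 1 in both groups, with or without the block, Mgat5 stood at -0.059, Mgat4b at 0.016 and Mgat4a at 0.017. With 1 array left out the PMA difference ran from -0.074 to 0.021 for Man2a1, -0.30 to 0.019 for Man2a2, -0.049 to 0.037 for Mgat1, -0.057 to 0.23 for Mgat2, -0.10 to 0.19 for Mgat3, -0.15 to 0.021 for Mgat4a, -0.056 to 0.029 for Mgat4b, -0.065 to 0.048 for Mgat5 and -0.020 to 0.021 for Mgat5b. Those fits had no block, so without control array 1 or PMA array 1 the distance of number 1 entered the PMA difference. For Mgat3 these 2 fits gave 0.19 and -0.10, against 0.025 with the block and all arrays. The difference of number 1 from the other arrays ran from -0.0038 to 0.076 for Mgat4c and -0.062 to 0.011 for Mgat4b. Leaving out 1 array gave 0 to 1 calls over all probe sets between numbers 3 and 2. The interaction of PMA with number 1 gave 2 to 18 without 1 array of number 2 or 3 and 0 after quantile-normalizing again, against 1. What else lay behind these changes was not tested. Signal over background is unknown, which limits Mgat4c and Mgat5b most.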
